A study of Homo sapiens with 4 samples.

Results

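The 10 integrin subunit genes described here are ITGB1, ITGB4, ITGB5, ITGB6, ITGA2, ITGA3, ITGA5, ITGA6, ITGAV and ITGAE, found by their symbol among the 19192 genes listed in each of 4 count tables. The tables hold ribosome footprints, which are the mRNA stretches covered by translating ribosomes, and matched fragments of total RNA. Both come from 2 derivatives of SW480, an established human line of colorectal adenocarcinoma. The first line is labelled LIN28B OE, for overexpression of LIN28B, an RNA-binding protein that blocks maturation of let-7 microRNAs. The second line is labelled LIN28B OE+IMP1-/- knockout and so carries the LIN28B overexpression too, together with a knockout of IMP1, an RNA-binding protein encoded by IGF2BP1. Each line gave 1 library per assay, made from 3 pooled culture plates. The labels used here name no promoter, clone or passage for either line.

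Integrins are cell surface receptors made of 1 alpha and 1 beta chain, which tie the cell to the extracellular matrix outside and to the cytoskeleton inside. The partners set the ligand. ITGB1 joins many alpha chains, ITGB4 joins only ITGA6, ITGB5 and ITGB6 join ITGAV, and ITGAE joins ITGB7. In intestinal epithelium, laminin-binding integrins hold cells to the basement membrane, and alpha6-beta4 is the integrin of hemidesmosomes, which anchor keratin filaments.

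Total counts ranged from 5429224 to 6813372 in the RNA libraries and from 2732760 to 3260262 in the footprint libraries. The libraries labelled as the IMP1 knockout held more IGF2BP1, at 840 against 1974 RNA counts (1.73-fold after scaling) and 332 against 821 footprint counts (2.04-fold), and less LIN28B, at 1205 against 303 RNA counts and 190 against 46 footprint counts. The lines are therefore called OE-labelled and knockout-labelled, and a direction below is one between libraries that carry these labels. All ratios are knockout-labelled over OE-labelled and are given on the log2 scale with a 95% interval that covers counting error only. With 1 library per line and assay no ratio has a replicate check, and no significance test was made. A gene was tested in an assay where its mean count over the 2 libraries was at least 50, and it was counted as higher or lower from 1.5-fold. Of the colorectal epithelial markers, 11 of 14 had RNA counts in both lines, and CDX1, KRT20 and LGALS4 stood at 0. Their summed level was 10896 CPM (counts scaled to a common library size) in the OE-labelled RNA library and 5445 in the knockout-labelled one. KRT8 and KRT18 made up 86.5% and 78.3% of these sums, and without them the sums were 1473 and 1181 CPM.

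In mRNA, 1 of 10 integrin subunits passed 1.5-fold upwards in the knockout-labelled library (ITGB1) and 4 passed it downwards (ITGB4, ITGB5, ITGA3 and ITGA2). Among all 9855 genes tested, 10.5% were that much higher (1036 genes) and 10.5% that much lower (1038 genes). In footprints, 2 of 9 tested subunits were higher (ITGA5 and ITGAE) against 15.0% of all genes, and 5 were lower (ITGB4, ITGB5, ITGA3, ITGA2 and ITGA6) against 14.1%. ITGB6 stayed under the count minimum in footprints. The members had a median log2 ratio of -0.34 in mRNA and -0.71 in footprints, beside 0.01 and 0.02 for all genes tested. When libraries were scaled by total counts, the median of all mRNA ratios moved to 0.13, the numbers of genes higher and lower became 1493 and 746, and 3 subunits were at least 1.5-fold higher in mRNA. The ratio of ITGAE had stood at 0.57 and that of ITGB6 at 0.53, just inside 1.5-fold, which is 0.58 on this scale.

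**Figure D1:**
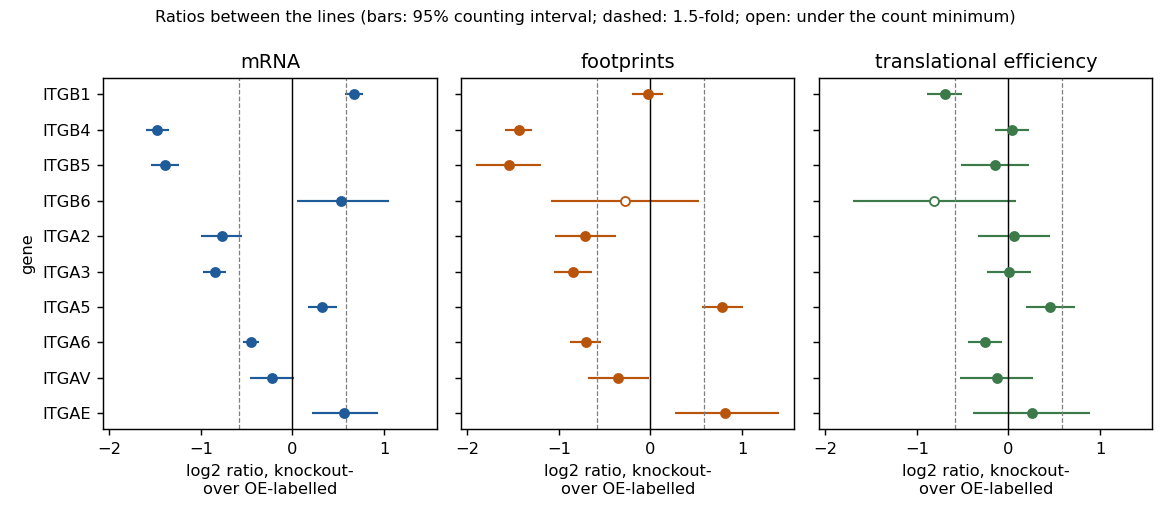
Log2 ratios of the 10 integrin subunit genes between the lines in mRNA, footprints and translational efficiency. Points are ratios, bars are 95% counting intervals, dashed lines mark 1.5-fold, and open points had a mean count under 50. ITGB4 and ITGB5 lie near -1.4 to -1.5 in both assays, and ITGB1 is higher in mRNA but near 0 in footprints.

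Among the beta chains, ITGB4 mRNA was 2.78-fold lower in the knockout-labelled library. ITGB4 encodes the beta4 subunit, whose long cytoplasmic tail binds plectin in hemidesmosomes (transcript ENST00000449880, chromosome 17, 75724696 to 75757818, plus strand, GRCh38, 39 exons). It had 1650 OE-labelled and 808 knockout-labelled RNA counts, and 1275 and 570 footprint counts. The log2 ratio was -1.47 (-1.60 to -1.35) in mRNA and -1.44 (-1.58 to -1.29) in footprints. The OE-labelled library was the higher one in each assay, and the differences were alike in size. The gene lies among genes with little difference, since the 40 nearest tested genes, 20 on each side, had a median mRNA ratio of -0.09. The keratin genes named with the hemidesmosome list further on, and the summed epithelial markers, were lower as well. Of 10 epithelial markers tested in mRNA 1 was at least 1.5-fold higher (CDH1, 0.89) and 4 lower, and of 9 tested in footprints 2 were higher and 4 lower; their part in the ITGB4 result was not tested.

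ITGB5 was lower by a similar amount. ITGB5 encodes the beta5 chain, which forms a vitronectin receptor with alphaV (ENST00000296181, chromosome 3, 124761948 to 124887297, minus strand, 15 exons). Its RNA counts were 994 and 515, and its footprint counts 236 and 98. The log2 ratio was -1.39 (-1.55 to -1.24) in mRNA and -1.54 (-1.90 to -1.20) in footprints, the lowest footprint ratio of the members. Its neighbours differed in the opposite direction, with a median of 0.28 over the 40 nearest genes in mRNA and 0.44 in footprints. Of those neighbours, 9 passed 1.5-fold upwards and 2 downwards in mRNA.

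ITGB1 differed between the assays. ITGB1 encodes beta1, the partner of the most alpha chains (ENST00000302278, chromosome 10, 32900392 to 32958209, minus strand, 16 exons). Its RNA counts were 1181 and 2554, a 1.59-fold higher scaled level in the knockout-labelled library (log2 ratio 0.67, 0.57 to 0.77). Its footprint counts were 519 and 616, a log2 ratio of -0.03 (-0.20 to 0.14). The RNA libraries thus stood apart, while the footprint interval crossed 0. ITGB6, the epithelial beta6 chain that joins alphaV to bind and activate latent TGF-beta, had low counts in all libraries (ENST00000409872, chromosome 2, 160101736 to 160200304, minus strand). It had 52 and 103 RNA counts and 28 and 28 footprint counts, with log2 ratios of 0.53 (0.05 to 1.05) and -0.28 (-1.09 to 0.53). Of its 2501 transcript bases, 966 also belong to the annotated transcript AC092153.1 on the same strand, so its count is uncertain.

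The promoters of ITGB1 and ITGB5 are shown because these beta chains differed in mRNA in opposite directions, together with that of ITGA5, described next, whose footprints were higher. Each sequence runs 5′ to 3′ on the minus strand from 250 bases before to 30 bases after a RefSeq start site (GRCh38.p14). RefSeq entries were matched for 8 of the 10 members; ITGB4 and ITGA3 were not matched. Capitals mark matches on either strand to 4 motifs: AP-1 (TGANTCA), TEAD (GGAATG), TCF/LEF (CTTTGA) and the GC box (GGGCGG).
ITGB1, chr10:32958201-32958480: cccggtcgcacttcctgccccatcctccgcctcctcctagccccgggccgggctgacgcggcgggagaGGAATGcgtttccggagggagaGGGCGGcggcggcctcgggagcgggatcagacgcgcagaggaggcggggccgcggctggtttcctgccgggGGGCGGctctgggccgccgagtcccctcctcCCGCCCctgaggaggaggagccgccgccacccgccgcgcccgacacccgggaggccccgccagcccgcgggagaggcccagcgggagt
ITGB5, chr3:124887336-124887615: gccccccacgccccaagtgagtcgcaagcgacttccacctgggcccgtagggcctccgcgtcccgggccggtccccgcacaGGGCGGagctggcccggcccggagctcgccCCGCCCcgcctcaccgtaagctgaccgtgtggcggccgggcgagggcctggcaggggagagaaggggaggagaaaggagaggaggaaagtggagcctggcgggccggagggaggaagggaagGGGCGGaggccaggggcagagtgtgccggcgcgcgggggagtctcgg
ITGA5, chr12:54419237-54419516: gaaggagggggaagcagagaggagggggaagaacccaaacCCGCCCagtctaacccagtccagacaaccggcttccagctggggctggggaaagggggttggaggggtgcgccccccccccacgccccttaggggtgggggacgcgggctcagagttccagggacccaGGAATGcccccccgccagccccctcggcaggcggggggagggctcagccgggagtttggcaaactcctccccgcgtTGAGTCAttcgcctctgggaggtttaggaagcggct
The ITGB1 window holds 3 GC boxes and 1 TEAD motif, and the ITGB5 window 3 GC boxes and none of the other motifs. The ITGA5 window holds 1 AP-1 motif, which starts 6 bases before the start site, 1 TEAD motif and 1 GC box. Among 35116 RefSeq promoter entries of 300 bases, 7.71% hold an AP-1 match, 14.0% a TEAD match, 12.9% a TCF/LEF match and 45.0% a GC box. These matches are a description of letters and say nothing of binding in these cells. The 3 printed entries start 21, 68 and 194 bases from the start of the transcript listed for each gene. RefSeq has further entries for ITGB1 and ITGB5, and the one nearest to the listed transcript start is printed. The further ITGB1 entry, 22651 bases away, holds none of the 4 motifs. The further ITGB5 entries, 387 and 14121 bases away, each hold 2 GC boxes within 300 bases and none of the other motifs.

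Among the alpha chains that pair with ITGB1, the collagen receptor chain ITGA2 and the laminin receptor chain ITGA3 were lower in both assays. ITGA2 (ENST00000296585, chromosome 5, 52989326 to 53094779, plus strand) had 370 and 295 RNA counts and 180 and 133 footprint counts. Its log2 ratio was -0.77 (-0.997 to -0.55) in mRNA and -0.71 (-1.05 to -0.38) in footprints. ITGA3 (ENST00000320031, chromosome 17, 50056110 to 50090480, plus strand) had 1173 and 886 RNA counts and 486 and 328 footprint counts, with log2 ratios of -0.85 (-0.98 to -0.72) and -0.84 (-1.05 to -0.64). Both genes sit beside genes that leaned lower in mRNA, where the neighbour median was -0.14 around ITGA2 and -0.24 around ITGA3. In footprints the neighbours stood at 0.02 and -0.03, while both members stayed lower.

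ITGA6, the laminin receptor chain that pairs with both ITGB1 and ITGB4, had the largest RNA count among the alpha chains (ENST00000264107, chromosome 2, 172427555 to 172506230, plus strand). It had 2173 and 2166 RNA counts, which at the scaled depths is a log2 ratio of -0.45 (-0.54 to -0.36), and 704 and 522 footprint counts, a log2 ratio of -0.71 (-0.87 to -0.54). It passed 1.5-fold in footprints but not in mRNA. Annotated antisense transcripts overlap its exons, as they do those of ITGA5, ITGAV and ITGAE, and whether counting used strand is not given in the sources used here.

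ITGA5 was higher in both assays, as was ITGAE, described further on. ITGA5 encodes alpha5, which forms the classical fibronectin receptor with beta1 (ENST00000293379, chromosome 12, 54395261 to 54419460, minus strand, 30 exons). It had 544 and 928 RNA counts and 255 and 532 footprint counts. The log2 ratio was 0.33 (0.17 to 0.48) in mRNA and 0.78 (0.57 to 1.01) in footprints, a 1.72-fold higher footprint level. Both assays were higher in the knockout-labelled library, and only the footprints passed 1.5-fold. The 40 nearest genes had medians of 0.02 and 0.09.

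ITGAV, the shared partner of ITGB1, ITGB5 and ITGB6, showed little difference (ENST00000261023, chromosome 2, 186590065 to 186680901, plus strand). It had 275 and 321 RNA counts and 158 and 150 footprint counts, with log2 ratios of -0.22 (-0.46 to 0.02) and -0.35 (-0.68 to -0.02). ITGAE, known as CD103 on intraepithelial lymphocytes, where it binds E-cadherin, was among the least abundant members (ENST00000263087, chromosome 17, 3714628 to 3801243, minus strand). It had 96 and 194 RNA counts and 40 and 86 footprint counts, with log2 ratios of 0.57 (0.21 to 0.94) and 0.82 (0.27 to 1.41). Its neighbours were also above 0, with medians of 0.18 in mRNA and 0.28 in footprints. Its only known partner gene, ITGB7, had an RNA count of 4 in the OE-labelled and 0 in the knockout-labelled library and stood at 0 in footprints, which allows up to 1.11 CPM in the OE-labelled and 0.913 in the knockout-labelled footprint library. Of 12 haematopoietic markers, 5 and 4 had RNA counts, and PTPRC, SPI1, CD14, CD3D, MS4A1 and NKG7 were among those at 0 in both RNA libraries. Their summed RNA level was 46.0 and 91.2 CPM, and GZMB and CD68 were the only 2 that reached the count minimum. GZMB stood at 0.94 in mRNA and 1.08 in footprints, and CD68 at 1.04 and 1.28, higher as ITGAE was. The part of the haematopoietic markers in the ITGAE result was not tested.

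Because the study concerns LIN28B, the coding sequences and 3′ untranslated regions of all 10 members' listed transcripts were searched for the let-7 seed match. Human let-7a-5p is shown with its seed, bases 2 to 8, in capitals, followed by the matches found, with the match to the seed (CTACCTC) in capitals.
let-7a-5p: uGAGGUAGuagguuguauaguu
ITGA5 coding position 288, chr12:54411878-54411906: ggtggtgctgtCTACCTCtgtccttgggg
ITGA5 coding position 528, chr12:54409270-54409298: gtgggcacctgCTACCTCtccacagataa
ITGA5 coding position 1767, across a splice junction: gagatgaagatCTACCTCaggaacgagtc
ITGAV coding position 73, chr2:186590400-186590428: cgggactcctgCTACCTCtgtgccgcgcc
Positions count from the A of the start codon to the first base of the match, and the sites were read from GENCODE transcripts on the strand of the gene. All 4 matches lie in coding sequence, 3 of them in ITGA5, and no match was found in the listed 3′ untranslated regions. That of ITGB6 is listed with 3 bases and cannot hold one, and those of ITGAE and ITGB4 are listed with 222 and 266 bases. Of 547 genes tested in mRNA with a coding sequence within 10% of the length of that of ITGA5, 24.3% hold at least 1 match and 0.548% at least 3. The seed is shared by 11 mature human microRNAs in the RefSeq table. The levels of let-7 were not measured here, and a match is not evidence of a working site.

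**Figure D2:**
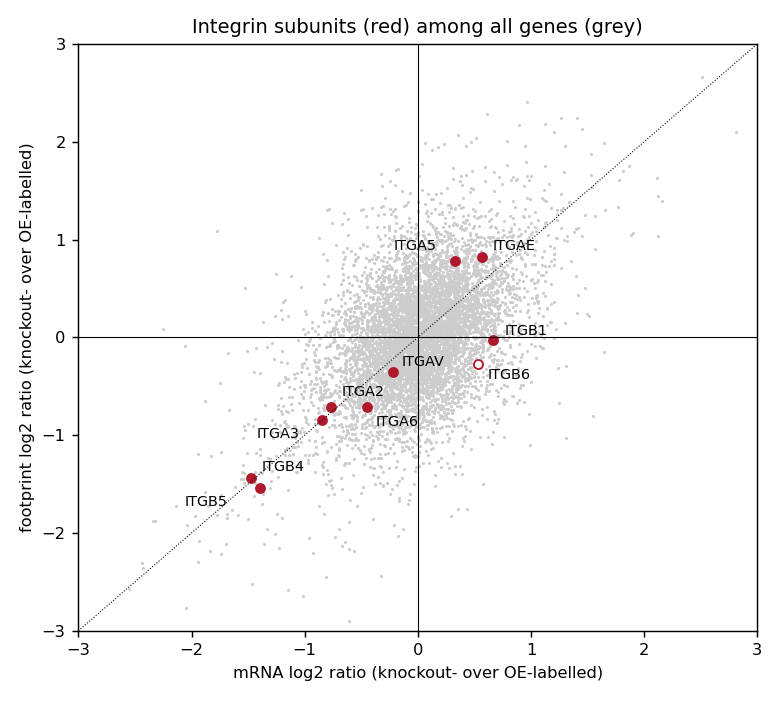
Footprint against mRNA log2 ratios for the integrin subunits (red) and 7260 genes tested in both assays (grey); 8 genes lie outside the axes, and the dotted line marks equal ratios. ITGB4, ITGB5, ITGA2 and ITGA3 lie close to that line, ITGA5 above it and ITGB1 and ITGA6 below it; ITGB6 (open) was under the count minimum in footprints.

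Translational efficiency, here the footprint ratio divided by the mRNA ratio, was at least 1.5-fold lower for 1 of 9 tested subunits, beside 12.9% of 7260 genes (939), and at least 1.5-fold higher for 0 of 9, beside 13.4% (972). The subunit was ITGB1, at -0.70 (-0.89 to -0.50), a value that contains its mRNA ratio as the divisor. ITGA5 stood at 0.46 (0.19 to 0.72) and ITGA6 at -0.26 (-0.44 to -0.07). For ITGB4 (0.04, -0.15 to 0.22), ITGB5 (-0.15, -0.52 to 0.22), ITGA2 (0.06, -0.33 to 0.45), ITGA3 (0.01, -0.23 to 0.24), ITGAV (-0.13, -0.53 to 0.27) and ITGAE (0.25, -0.39 to 0.90) the interval crossed 0. The 4 subunits with the lowest mRNA ratios therefore had footprint ratios within counting error of them. Scaling by total counts moved the numbers of all genes with higher and lower efficiency to 760 and 1200, and the ITGB1 value to -0.79.

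Footprints over RNA within each line were low for most subunits. The log2 value was set to 0 at the median of the 7260 genes tested in both assays, so that 50.0% of genes lie above it in the OE-labelled line and 50.0% in the knockout-labelled line. In the OE-labelled line 1 of 9 subunits lay above the median, ITGB4 at 0.36 (0.25 to 0.46), at the 66.4th percentile of genes. In the knockout-labelled line 2 of 9 did, ITGB4 at 0.37 (0.22 to 0.53) and ITGA5 at 0.07 (-0.08 to 0.23). ITGB5 was lowest in both lines, at -1.34 (-1.55 to -1.14) and -1.51 (-1.82 to -1.20), which are the 11.2th and 9.99th percentiles. ITGA6 stood at -0.90 and -1.18, and ITGB1 at -0.46 in the OE-labelled and -1.17 in the knockout-labelled line, percentiles 32.5 and 15.1. ITGA3 stood at -0.54 and -0.56, ITGAE at -0.52 and -0.29, ITGA2 at -0.31 and -0.27, and ITGAV at -0.07 and -0.22. Which part of each transcript was counted is not stated in the labels or headers. If RNA was counted over the whole transcript and footprints over the coding part, a setting added after the data were seen, ITGB4 moves to -0.55 in both lines and ITGA5 to -0.42 in the knockout-labelled line, below the median.

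**Figure D3:**
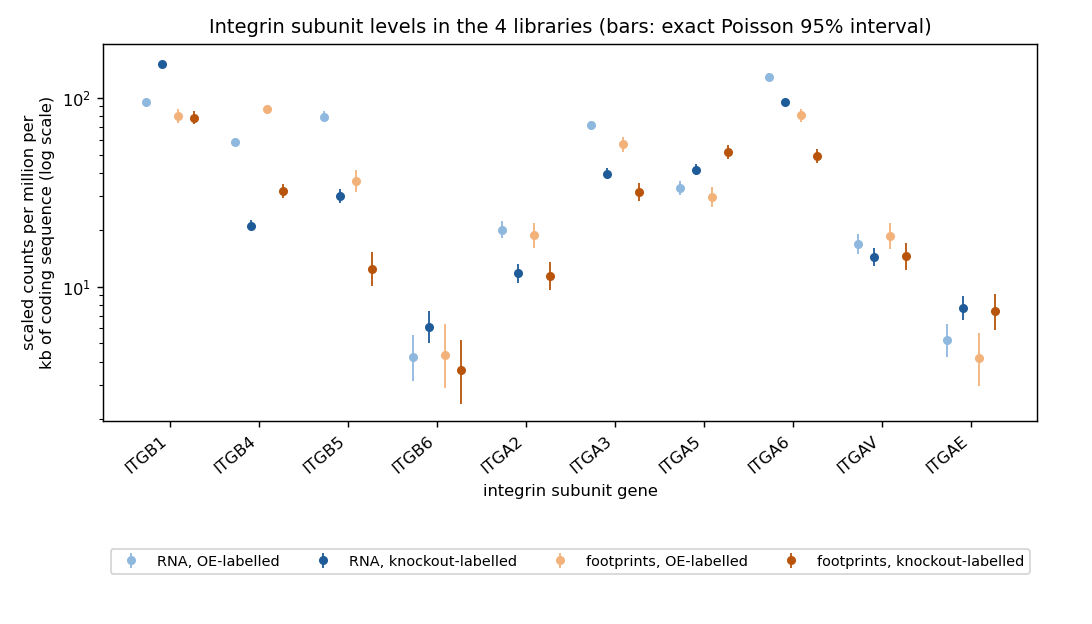
Level of each integrin subunit gene in each of the 4 libraries, in scaled CPM per kilobase of coding sequence on a log axis, with exact Poisson 95% intervals. ITGB1 and ITGA6 are among the 3 highest in each library, with ITGB4 in the OE-labelled footprints and ITGA5 in the knockout-labelled footprints beside them, and ITGB6 and ITGAE are the lowest.

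Levels were compared between genes as scaled CPM per kilobase of coding sequence (CPM per kb). In OE-labelled footprints ITGB4 (86.8 CPM per kb), ITGA6 (80.6) and ITGB1 (79.9) were highest, and adjacent values in this order did not differ beyond counting error. ITGA3 followed at 56.8, ITGB5 at 36.3, ITGA5 at 29.9, ITGA2 at 18.7 and ITGAV at 18.5, with ITGB6 at 4.37 and ITGAE at 4.17. Within the pairs ITGA2 and ITGAV, and ITGB6 and ITGAE, the levels did not differ beyond counting error. In knockout-labelled footprints ITGB1 led at 78.3 CPM per kb, ITGA5 (51.5) and ITGA6 (49.4) came next without a difference between them, and ITGB4 (32.0) and ITGA3 (31.7) were also within counting error of each other. ITGAV (14.5), ITGB5 (12.4) and ITGA2 (11.4) formed a run in which neighbours did not differ, above ITGAE (7.40) and ITGB6 (3.61). ITGB4 thus went from the first to the fourth place and ITGA5 from the sixth to the second.

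In RNA the leading gene was ITGA6 in the OE-labelled line (129 CPM per kb) and ITGB1 in the knockout-labelled line (150). ITGB1 followed at 94.6 in the OE-labelled RNA library, then ITGB5 at 79.5, ITGA3 at 71.4 and ITGB4 at 58.4. The order of these last 3 depends on the length used: per kilobase of the whole listed transcript, a setting added after the data were seen, ITGB4 stood at 55.6, ITGA3 at 46.0 and ITGB5 at 43.6. In the knockout-labelled RNA library ITGA6 followed ITGB1 at 94.8, then ITGA5 at 41.6 and ITGA3 at 39.6, which did not differ beyond counting error, ITGB5 at 30.3 and ITGB4 at 21.0. Per kilobase of whole transcript ITGB4 again stood above ITGB5 (16.6), and ITGA2 (5.28) was last. Of the footprints per coding length summed over the 4 beta chains, ITGB4 made up 41.9% in the OE-labelled and 25.3% in the knockout-labelled library, ITGB1 38.5% and 62.0%, and ITGB5 17.5% and 9.84%. Of the sum over the 6 alpha chains, ITGA6 made up 38.6% and 29.8%, ITGA5 14.3% and 31.0%, and ITGA3 27.2% and 19.1%. The alpha sum was 1.01 times the beta sum in OE-labelled and 1.31 times in knockout-labelled footprints, and 1.17 and 1.01 times in RNA per coding length. Per whole transcript length the RNA ratios were 0.997 and 0.907, so the side of 1 on which they lie depends on the length used. These shares are of footprints on the genes listed here and not of receptors on the cell.

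The ratio of alpha to beta chain within 1 library does not depend on how libraries are scaled against each other. For alpha6-beta4, the footprint ratio per coding length of ITGA6 to ITGB4 was 0.929 (0.846 to 1.02) in the OE-labelled and 1.54 (1.37 to 1.74) in the knockout-labelled library. For the fibronectin receptor, the footprint ratio of ITGA5 to ITGB1 was 0.374 (0.320 to 0.435) and 0.657 (0.584 to 0.739). The intervals of the lines did not overlap for either pair. The mRNA ratio of ITGA5 to ITGB1 differed the other way, at 0.350 and 0.276, since ITGB1 mRNA was higher while its footprints were not.

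For the other ITGB1 partners the footprint ratio to ITGB1 was smaller in the knockout-labelled library. ITGA3 over ITGB1 went from 0.711 (0.627 to 0.806) to 0.404 (0.353 to 0.463), ITGA6 over ITGB1 from 1.01 (0.899 to 1.13) to 0.630 (0.560 to 0.709) and ITGA2 over ITGB1 from 0.234 (0.197 to 0.278) to 0.146 (0.120 to 0.176). For ITGAV over ITGB1, at 0.232 and 0.185, the interval of the change crossed 0 (-0.32, -0.68 to 0.04, log2). ITGAV over ITGB5 went from 0.510 to 1.17, a 2.28-fold difference, and ITGAV over ITGB6 was 4.24 and 4.03. The 8 pairs share subunits, so these ratios are not separate observations.

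**Figure D4:**
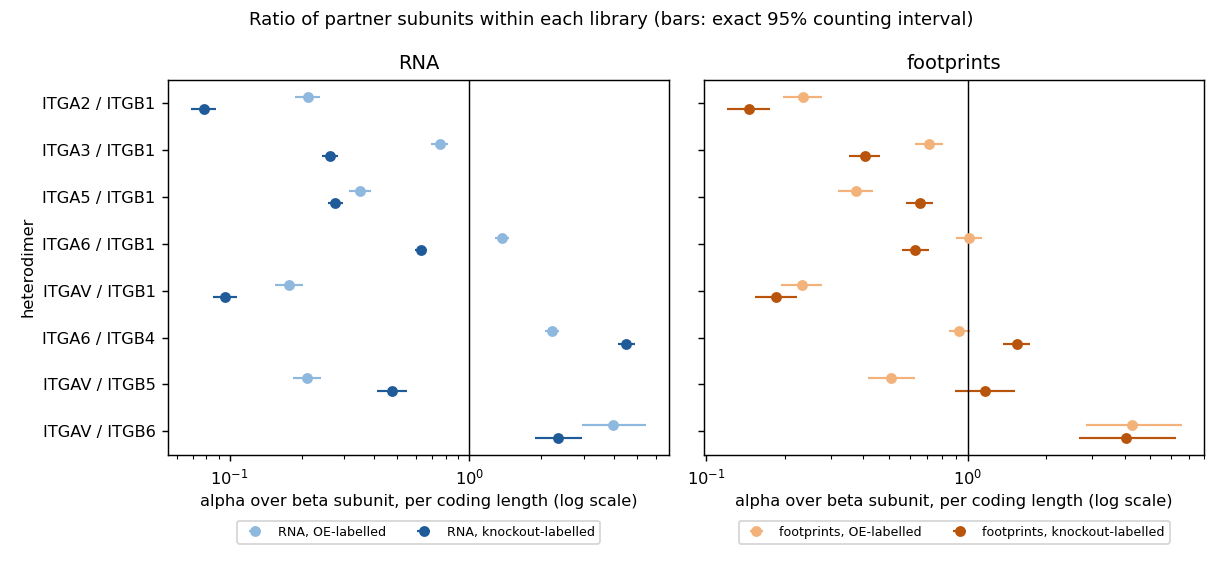
Ratio of alpha to beta subunit counts per coding length for 8 known heterodimers within each RNA (left) and footprint (right) library, on log axes with exact 95% counting intervals; the black line marks a ratio of 1. In footprints ITGA5 over ITGB1, ITGA6 over ITGB4 and ITGAV over ITGB5 are higher in the knockout-labelled library, and ITGA2, ITGA3 and ITGA6 over ITGB1 are lower.

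Of the 15 further integrin subunit genes in the tables, 3 were tested in mRNA: ITGA1, which encodes a collagen receptor chain, ITGA7, a laminin receptor chain, and ITGB8, a partner of ITGAV. ITGA1 had 86 and 55 RNA counts (log2 ratio -1.08, -1.61 to -0.58) and 46 and 34 footprint counts, below the footprint minimum. ITGB8 had 99 and 46 RNA counts (-1.54, -2.09 to -1.03) and 8 and 19 footprint counts, also below it. ITGA7 had 148 and 211 RNA counts (0.07, -0.24 to 0.38) and 124 and 189 footprint counts (0.33, -0.00 to 0.67). Of these 3, 2 were at least 1.5-fold lower in mRNA and 0 higher. ITGA4 and ITGB3 had no count in any library.

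Genes that act with integrins were described by lists, each counted beside the 10.5% of all genes higher and 10.5% lower in mRNA. Of 16 tested matrix and cell surface ligands, 5 were at least 1.5-fold higher in mRNA and 2 lower, with a median of 0.34. Among them were CYR61 (1.86), which encodes a matricellular ligand of alphaV and alpha6 integrins, TNC (1.78), which encodes tenascin-C, and ICAM1 (-0.95), a cell surface ligand of leukocyte integrins. LAMA3 and LAMB3, which encode laminin chains of the epithelial basement membrane, stood at -0.09 and -0.43 in mRNA. FN1, which encodes fibronectin, the ligand of alpha5-beta1, stood at 0.48 in mRNA and -0.36 in footprints. CDH1, which encodes E-cadherin, the ligand of alphaE, stood at 0.89 and 1.11. In footprints 5 of 15 ligands were higher and 2 lower, beside 15.0% and 14.1% of all genes.

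Of 21 tested talin, kindlin and other adhesion adaptor genes, 2 were at least 1.5-fold higher in mRNA and 3 lower, with a median of 0.03. The talin gene TLN1, whose product activates integrins by binding beta tails, stood at 0.02 in mRNA. The kindlin genes differed in opposite directions, FERMT1, the epithelial kindlin, at -0.78 in mRNA and -0.60 in footprints, and FERMT2 at 1.14 and 0.29. FLNC, a filamin gene, stood at 2.51, TNS4 at -1.04 and ACTN4 at -1.04 in mRNA. In footprints 3 of 20 were higher and 4 lower, beside the same 15.0% and 14.1%. Of 6 tested hemidesmosome genes besides the integrins, 1 was higher in mRNA and 3 lower. The 3 lower ones were keratin genes, KRT5 at -1.59, KRT8 at -1.22 and KRT18 at -1.10. The others were DST at 0.66, CD151, listed with the tetraspanins too, at 0.30, and PLEC, which encodes plectin, at -0.33. KRT8 and KRT18 are also among the epithelial markers. Of 14 tested tetraspanins and other membrane partners, 2 were higher in mRNA and 3 lower: CD44 (-1.51), CAV1 (-1.24), TSPAN1 (-1.19) and CD47 (0.85) lay furthest from 0. CD151, the tetraspanin that binds alpha3 and alpha6 integrins, stood at 0.30 in mRNA and 0.50 in footprints.

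**Figure D5:**
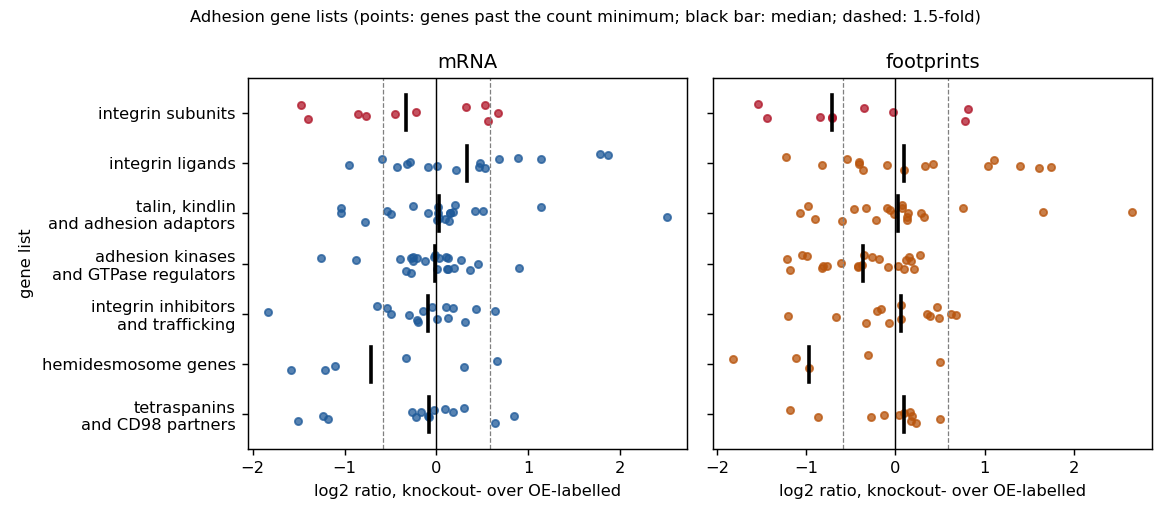
Log2 ratios of integrin subunits (red) and 6 lists of adhesion genes in mRNA and footprints; points are genes past the count minimum, scattered vertically at random within a list, black bars are medians and dashed lines mark 1.5-fold. Integrin subunits have medians of -0.34 and -0.71, and hemidesmosome genes -0.71 and -0.96, where the 3 genes past 1.5-fold downwards are keratins. The other 5 lists lie between -0.09 and 0.34 in mRNA and between -0.36 and 0.10 in footprints.

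The genes whose pair of mRNA and footprint ratios lay nearest to that of a member were sought among genes with a mean count of at least 200 in each assay. Nearest to ITGB4, the lowest member in mRNA, were WFS1 (-1.54 and -1.45), CCND1 (-1.53 and -1.39) and TSC22D1 (-1.55 and -1.38). Nearest to ITGB1, the highest, were SEC23A (0.66 and -0.01), SNRNP40 (0.65 and 0.01) and CHPF (0.67 and 0.03). Likeness here is the distance between log2 ratios of 4 libraries.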

How the data were processed

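Ribosome footprints and total RNA were sequenced from 2 SW480-derived lines, 1 library per line and assay. The authors deposited raw counts, as whole numbers, with 1 transcript named for each gene, per the file headers. RNA pieces were size-selected, at 18 to 34 nt for footprints and 18 to 50 nt for RNA, per the labels' protocols; linkers carried random identifiers, and ribosomal RNA was removed. The tools named, without role or order, are HISAT2 2.1.0, Bowtie 1.1.2 and cutadapt 1.10, with build GRCh38, per the submitters' processing notes. Not given in the sources used here: the counter, its use of strand and identifiers, the annotation release, and the counted part of the transcript. Intervals are too narrow where PCR copies were counted. One library's cell line label reads SW840 and its source SW480, which was followed.

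Groups come from the sample titles. Counts were scaled within each assay by TMM (edgeR 4.0.16, R 4.3.3). Log2 ratios had 0.5 added to each count. Ratios of 2 counts have exact conditional binomial (Clopper-Pearson) intervals, levels exact Poisson intervals, and translational efficiency and footprints over RNA Wald intervals. A count of 0 allows up to 3 counts. Other scalings tried were upper-quartile, total counts (also leaving out mitochondrially encoded genes) and size factors from DESeq2 1.42.0. Further alternatives were 5 added to each count, count minimums of 10, 200 or none, a 2-fold threshold and 10 neighbours on each side. Ratios and their intervals were tested on simulated Poisson counts scaled by totals. Such counts hold no variation between libraries, and the TMM scaling was not tested in this way. Coordinates and lengths are those of the listed transcripts in GENCODE release 29, which holds 19176 of 19192.

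The members and the 10 gene lists were chosen with earlier results of these data known. Named genes are all members, other integrin subunits with a mean RNA count of at least 50, at most 4 per list with the largest mRNA ratios past 1.5-fold, and the 3 genes nearest in pattern to the highest and the lowest member. LAMA3, LAMB3, FN1, CDH1, TLN1, FERMT1, FERMT2, PLEC, CD151, ITGB1BP1, RAB21, GNB2L1, PTK2, GIT1, GIT2, RHOA, RAC1, COL1A1, MYH11 and the ITGA5 and ITGAV let-7 matches were added after their values were seen. Some listed genes are not reported here by name.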

Additional observations from a re-analysis of the deposited data

How the results depend on the processing

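With 1 library per line and assay, precision is limited to counting error, and ITGB6 and ITGAE rest on the fewest counts. No paired analysis was possible because each group has 1 library. Of the 10 members, the mRNA and footprint ratios kept their direction under DESeq2 size factors, upper-quartile scaling, total counts with or without mitochondrially encoded genes, and 5 added to each count. Over these settings ITGB4 ranged from -1.50 to -1.36 in mRNA and ITGB1 efficiency from -0.79 to -0.65. Scaling by total counts turned the efficiency of ITGB4 to -0.0582, of ITGA2 to -0.0358 and of ITGA3 to -0.0889 (-0.0553, -0.0329 and -0.0860 without mitochondrially encoded genes), all near 0 in either case, and gave 3 members at least 1.5-fold higher in mRNA under both totals. At a 2-fold threshold, 0 members were higher and 2 lower (ITGB4 and ITGB5) in mRNA and in footprints, and 0 lower in efficiency. With a mean count of 10 or no count minimum, 2 members were lower in efficiency, ITGB6 being the added one. With a mean count of 200, 1 member was higher and 3 lower in footprints, since ITGAE, ITGB5 and ITGA2 fell under it. Of the members above the median of footprints over RNA, 3 were found in each line with a mean count of 10 and 1 in the knockout-labelled line with 200. That median is taken over the genes past the count minimum, so it moves with the minimum. The share of this shift in the counts was not tested. With RNA per base of the whole transcript and footprints per coding base, a setting chosen after seeing the data, 0 members lay above the median in the knockout-labelled line, and ITGB4 stood at -0.55 in both lines, ITGA5 at -0.42 (knockout-labelled) and ITGAV at 0.11 (OE-labelled). Medians over 10 neighbours on each side lay within the quartiles of those over 20.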

Other observations

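Of 23 tested adhesion kinases and GTPase regulators, 1 was at least 1.5-fold higher in mRNA (SRC, 0.90) and 2 lower (NEDD9, -1.26, and FYN, -0.88), beside 10.5% of all genes in each direction. In footprints 0 of 22 were higher, beside 15.0% of all genes, and 8 were lower, beside 14.1%, with a median of -0.36. GIT1 and GIT2, scaffolds of focal adhesions, stood at -0.21 and -0.40 in mRNA and at -1.19 and -1.05 in footprints. The focal adhesion kinase gene PTK2 stood at -0.03 and -0.42, and the GTPase genes RAC1 at 0.01 and 0.03 and RHOA at -0.25 and -0.35.

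Of 16 tested genes of integrin inhibition and trafficking, 1 was higher in mRNA (RAB11FIP1, 0.64) and 2 lower (NDRG1, -1.83, and ITGB1BP1, -0.64), and in footprints 2 of 14 were higher and 2 lower. RAB21, a GTPase of integrin endocytosis, had 482 and 570 RNA counts and 113 and 212 footprint counts (log2 ratios -0.20 and 0.63). ITGB1BP1, whose product ICAP-1 binds the beta1 tail and holds it inactive, had 405 and 353 RNA counts and 47 and 73 footprint counts, a footprint ratio of 0.35 and an efficiency of 1.00, and GNB2L1, which encodes the ribosomal scaffold RACK1, stood at -0.29 and 0.38. Among 12 markers of fibroblasts, endothelium and muscle, those tested were KDR and DES in mRNA (-0.70 and 0.18) and DES and MYH11 in footprints (0.35 and 0.43). KDR had 1571 and 1312 RNA counts but 3 and 3 footprint counts. COL1A1, under the count minimum, had 2 and 55 RNA counts and 0 and 57 footprint counts.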
